A study of Homo sapiens with 36 samples.

Results

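The 6 libraries described here hold polyA-selected RNA from the cytoplasm of DIS3-AID cells, 3 taken after 1 h with 500 uM auxin and 3 from untreated cells, out of 36 libraries in the study. They were chosen by their labels alone. HCT116 is a human colon carcinoma line. In the DIS3-AID line, a single CRISPR clone of an HCT116 derivative, DIS3 carries the auxin-inducible degron, a tag through which auxin and the plant protein TIR1 mark a protein for destruction. The control line expresses TIR1 and was likewise given auxin or left untreated, with 3 polyA libraries in each state. Libraries were made from the cytoplasmic fraction with a stranded polyA kit. A set of 12 libraries of rRNA-depleted total RNA from the same fraction, lines and treatments is used below where the response of polyA RNA is set against that of total RNA. The study's design text calls the triplicates technical, so p-values measure the spread between these samples and may miss variation between cultures.

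DIS3 is a catalytic subunit of the RNA exosome, the complex that degrades RNA from its 3′ end. In nuclei it removes short-lived RNA made upstream of promoters, at enhancers and antisense to genes, and it takes part in trimming the 3′ ends of small non-coding RNAs. Such RNAs can carry oligo(A) or poly(A) tails, added by nuclear poly(A) polymerases, and some leave the nucleus when decay fails. Selection on poly(A) keeps the tailed molecules and leaves out most of the others.

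The polyA libraries held 25.9 to 33.1 M counts each. Levels are given as counts scaled to library size (CPM) after TMM scaling, changes as log2 ratios of auxin to untreated with their standard error (SE), and a feature was called at an adjusted p below 0.05 in edgeR's quasi-likelihood test (Benjamini-Hochberg over all 16651 features tested). Most genes named below were picked because they were called, did not overlap between groups and changed most in their class or list. For those genes the call and the lack of overlap describe the choice and are no separate support. Of 14 markers of colon epithelium measured, 10 had enough counts to be tested. Among them KRT8 was abundant, at 4466 to 4531 CPM in auxin-treated and 4515 to 4789 CPM in untreated DIS3-AID cells. KRT20, a marker of differentiated colon cells, was at or below 0.177 CPM in those 6 libraries. Of 11 fibroblast markers only COL1A1 and ACTA2 had enough counts to be tested, and of the blood markers only HBA1 and HBA2.

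DIS3 mRNA itself was not called. It stood at 5.16, 5.27 and 4.51 CPM after auxin, against 4.66, 4.37 and 4.04 CPM in untreated DIS3-AID cells (log2 0.19 ± 0.14 SE, adjusted p = 0.44). The groups overlapped, and the control line had means of 6.64 CPM with and 6.90 CPM without auxin. The degron acts on the protein, which these libraries do not measure. None of the 13 measured genes of the exosome core, its cofactors C1D and MPHOSPH6 and the DIS3 family was called in either direction by edgeR or DESeq2 (median log2 -0.01), and 0 had an unadjusted p below 0.05. Of 20 other exosome cofactors and nuclear decay factors, ZFC3H1 alone was called, a zinc finger protein that links the exosome to polyadenylated nuclear RNA (31.98, 31.25 and 35.93 CPM after auxin, against 23.03, 22.41 and 20.45 CPM untreated; log2 0.59 ± 0.08, adjusted p = 1.87e-06). Its 2 groups did not overlap.

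Across the whole table the response was mainly upward. Of the 16651 features tested, 2836 (17%) were called, 2190 higher (13.2%) and 646 lower (3.88%) after auxin. Rises of at least 2-fold numbered 1569 (9.42%), and falls of that size 8 (0.048%). With library sizes alone as the scaling, the split was 2351 higher and 331 lower, so that 87.7% of calls were rises, against 77.2% with TMM. Without replicate 1 of the auxin group 387 falls were called. Control cells gave 8 calls upon auxin (0.048%), 2 higher (0.012%) and 6 lower (0.036%). DESeq2 called 24 features there, and 871 had an unadjusted p below 0.05 in edgeR (5.23%). Tested as a difference between the lines, the response to auxin was significant for 972 features (5.84%), 808 of them higher in DIS3-AID cells (4.85%) and 164 lower (0.985%). The 164 ranged from 78, without replicate 2 of the untreated control cells, to 260, without replicate 1 of that group. In 5012 features (30.1%) the 3 auxin and 3 untreated CPM values of DIS3-AID cells did not overlap. More features had at least 1 count after auxin, 26179 to 26562 per library, against 23881 to 24400 in untreated DIS3-AID cells and 23668 to 24624 in control cells. The ranges of the DIS3-AID groups did not overlap (exact permutation test, two-sided, p = 0.1, the smallest possible with 3 against 3).

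The rises lay mainly in non-coding classes. Assembled loci, transcript models that carry only a locus number, were called higher in 491 of 783 cases and lower in 3 (median log2 1.44). Regions that the tables name as enhancer RNA (eRNA) were called higher in 741 of 1462 cases and lower in 3 (median 0.78). Long non-coding RNAs (lncRNAs) were called higher in 650 of 2793 cases and lower in 17 (median 0.22), small nuclear RNAs (snRNAs) in 10 of 19 and none, and small nucleolar RNAs (snoRNAs) in 31 of 115 and 1. Protein-coding genes ran the other way, with 168 of 10088 called higher and 615 lower (median -0.05, but 0.00 with library sizes alone). Over all features tested the median was -0.01. In control cells the medians of assembled loci, eRNA regions and lncRNAs were 0.08, 0.07 and 0.04, with no call in any of the 3 classes. Whether the loci and eRNA regions were defined on these same libraries is not given in the sources used here, and if they were, their direction is not independent of these samples. Counts of features tested leave out the many with few reads. Only 783 of 1433 assembled loci, 1462 of 7439 eRNA regions and 2793 of 14436 lncRNAs passed the filter on low counts, so features that are high after auxin alone passed because of that group. The filter asks for about 0.351 CPM in 3 libraries, a level that 1333 of the features tested, 987 of them called higher, did not reach in 3 of the 9 other libraries. Among the 15318 that did, 1203 were called higher (7.85%) and 646 lower. By class these were 163 of 434 assembled loci (37.6%), 299 of 948 eRNA regions (31.5%), 498 of 2493 lncRNAs (20%), 14 of 89 snoRNAs (15.7%) and 1 of 8 snRNAs. Of the features tested, 39 had no count in any untreated DIS3-AID library, and setting them at a bound of 3 counts over that group left every class median as given. With so few features, this check says little about the medians. The medians also include features that passed the filter only through the auxin group. These were 349 of 783 assembled loci, 514 of 1462 eRNA regions, 300 of 2793 lncRNAs and 11 of 19 snRNAs. Medians without them were not computed.

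**Figure D1:**
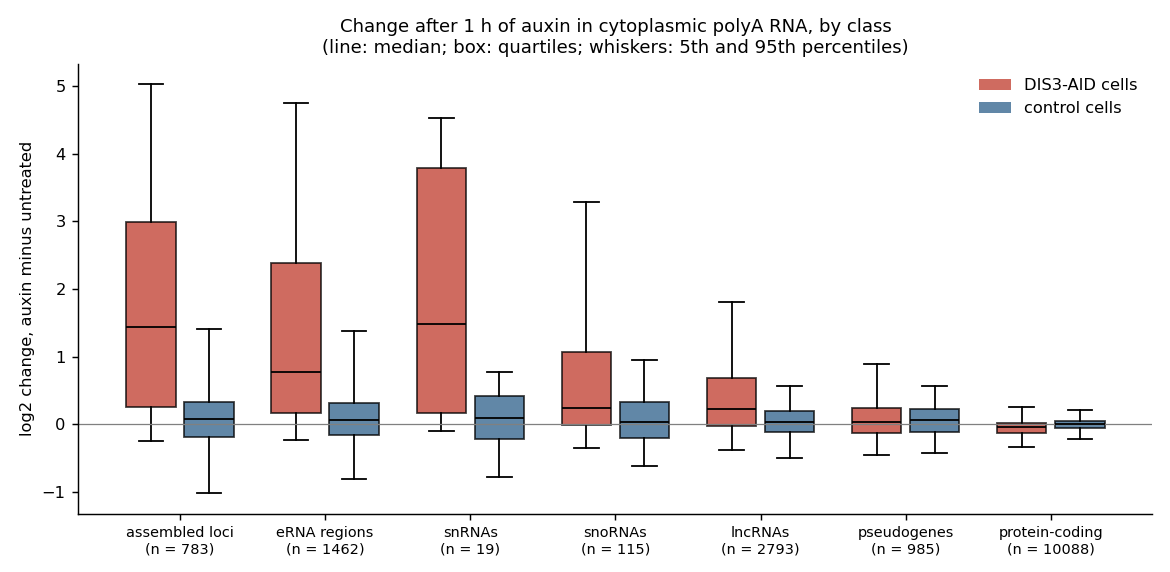
Log2 change after 1 h of auxin in cytoplasmic polyA RNA for 7 classes of feature, in DIS3-AID cells (red) and control cells (blue), with the median as a line, the quartiles as a box and the 5th and 95th percentiles as whiskers. In DIS3-AID cells the medians of assembled loci, snRNAs and eRNA regions lie at 1.44, 1.48 and 0.78, while every control box straddles 0. The medians include features that passed the filter on low counts only through the auxin group.

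These classes are a small part of a polyA library. Assembled loci took 0.425 ± 0.0119% of counts after auxin, against 0.313 ± 0.00722% in untreated DIS3-AID cells (SD, n = 3 each), a ratio of 1.36. eRNA regions took 1.42 ± 0.0105% after auxin and 1.202 ± 0.0193% untreated, and lncRNAs 3.05 ± 0.0287% and 2.81 ± 0.00336%. The share of snRNAs was 0.00464 ± 0.000154% after auxin against 0.00243 ± 0.000184% untreated, the largest ratio of these 5 classes at 1.91. snoRNAs took 0.0357 ± 0.000945% after auxin and 0.0297 ± 0.000396% untreated. In each of the 5 classes all 3 auxin libraries lay above all 3 untreated ones (exact permutation test, two-sided, p = 0.1, the smallest possible), and above the 6 control libraries. Shares of pseudogenes, protein-coding genes and mitochondrial genes overlapped between the groups.

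**Figure D2:**
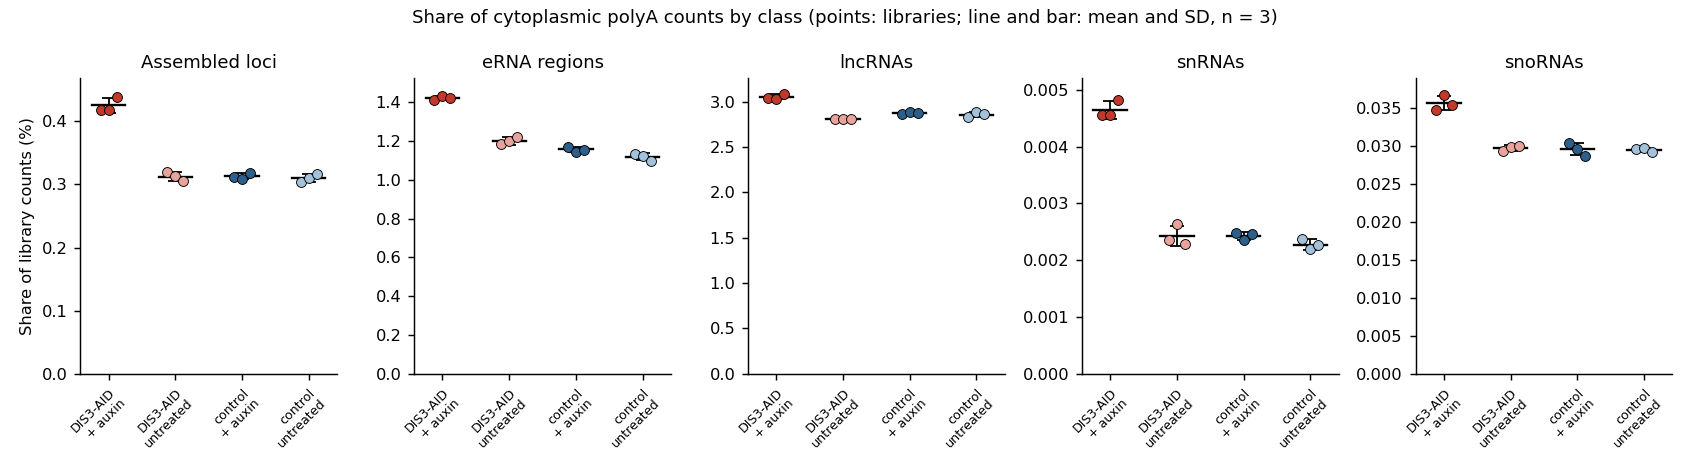
Share of all counts taken by 5 classes of feature in each polyA library (points), with mean and SD as line and bar (n = 3 per group). The 3 auxin-treated DIS3-AID libraries lie above the other 9 in every panel, from 0.425% against 0.313% on average for assembled loci to 0.00464% against 0.00243% for snRNAs.

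The lncRNAs that rose were low in abundance beside coding genes, as were the lncRNAs tested in general. All 2793 lncRNAs tested had median levels of 1.41 CPM after auxin and 1.02 CPM in untreated DIS3-AID cells. The 650 called higher had a median level of 2.08 CPM after auxin, against 0.920 CPM in untreated DIS3-AID cells, 0.943 CPM in control cells with auxin and 0.917 CPM in untreated control cells. After auxin 493 of them exceeded 1 CPM, and 311 did so untreated. The median protein-coding gene tested had 23.9 CPM after auxin and 24.8 CPM untreated. Split by level in control cells, 256 of the 931 lncRNAs with the lowest levels were called higher, 249 of them by at least 2-fold. Of the lowest group, 300 passed the filter on low counts only through the auxin group, and 152 of the 256 are among them. Among the other 631, 104 were called higher (16.5%), 97 of them by at least 2-fold. Of the 931 with the highest levels, above 2.2 CPM, 189 were called higher (20.3%) and 28 by at least 2-fold.

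Divergent transcripts, which start near the promoter of a coding gene and run the opposite way, had the highest median change of the lncRNA lists described here. Of 315 tested, 140 were called higher and none lower (median log2 0.61), and of the 267 that reached the filter level outside the auxin group 106 were called higher (39.7%, against 20% of lncRNAs chosen alike). PTPN23-DT (chr3:47379089-47380999, minus strand, hg38) had 2.79, 2.50 and 2.56 CPM after auxin, against 0.320, 0.207 and 0.432 CPM in untreated DIS3-AID cells. Its groups lay far apart (log2 3.04 ± 0.29 SE, adjusted p = 2.55e-09), and both control groups stayed with the untreated cells at means of 0.357 and 0.467 CPM. ERRFI1-DT (chr1:8026738-8122702, plus strand) was the most abundant of the divergent transcripts named here, at 9.61, 9.67 and 9.10 CPM after auxin against 1.46, 1.96 and 2.28 CPM untreated (log2 2.32 ± 0.16, adjusted p = 1.91e-12). SUGT1-DT had 2.33, 2.84 and 2.38 CPM after auxin and 0.497, 0.585 and 0.157 CPM untreated, again without overlap. STAM-DT rose by 2.26 ± 0.27 on the log2 scale.

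Genes across from these promoters were called in shares near those of coding genes in general. Of 10078 coding genes tested in both polyA and total RNA, 543 were called higher in total RNA and 2177 lower (median log2 -0.10). Among the partners of the 140 divergent transcripts called higher, measured in cytoplasmic total RNA, the median log2 change was -0.11, with 6 called higher and 36 lower and none higher by 2-fold. Partners of the 170 divergent transcripts tested but not called had a median of -0.12, with 6 higher and 45 lower. PTPN23, a tyrosine phosphatase family member, changed by -0.24 (adjusted p = 0.00244) and ERRFI1, a feedback inhibitor of EGFR, by -0.31 (adjusted p = 0.00478) in total RNA. SUGT1, a co-chaperone, was not called there (-0.13, adjusted p = 0.127). The number of falls in total RNA depended on the scaling, 3040 over all features with TMM and 681 with library sizes alone.

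lncRNAs antisense to a gene were called higher in 171 of 667 cases and lower in 1 (median 0.28). The share of 25.6% is close to the 23.3% of all lncRNAs tested and stands against 13.2% over all features. MYADM-AS1 rose by 2.91 ± 0.26 on the log2 scale, SPACA6-AS1 by 2.55 ± 0.34 and HEXIM2-AS1 by 2.36 ± 0.22. WWTR1-AS1, antisense to the gene for the Hippo pathway coactivator TAZ, had 2.54, 2.88 and 3.72 CPM after auxin, against 0.604, 0.448 and 0.824 CPM untreated (log2 2.29 ± 0.24, adjusted p = 1.60e-08). Its groups did not overlap, nor did the auxin values overlap with the control means of 0.696 and 1.07 CPM. PINK1-AS was the one antisense RNA called lower (log2 -0.28 ± 0.07, adjusted p = 0.00443), a call lost without replicate 1 of the auxin group. The genes opposite the 147 antisense RNAs called higher that have a measured partner had a median log2 change of -0.10 in total RNA, with 10 higher, 4 of them by 2-fold, and 25 lower. Partners of the 427 others tested had a median of -0.10, with 42 higher and 88 lower. The kits keep strand, but the strand setting used in counting is not given in the sources used here, so reads of a gene and its antisense partner may not be fully separated.

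Of the intergenic RNAs with LINC symbols, 63 of 294 were called higher and 1 lower (median 0.18). Their share, 21.4%, is no larger than that of all lncRNAs tested. LINC01144 rose by 2.55 ± 0.35, LINC02939 by 2.03 ± 0.30, LINC02983 by 1.91 ± 0.27 and LINC00896 by 1.76 ± 0.28 on the log2 scale. Of 31 host transcripts of microRNAs, 11 were called higher (35.5%, against 23.3% of all lncRNAs tested and 13.2% of all features) and none lower (median 0.41). Of the 26 that reached the filter level outside the auxin group, 8 were called higher (30.8%, against 20% of lncRNAs chosen alike). MIR378D2HG led the microRNA hosts (log2 3.25 ± 0.18). MIR4453HG followed at 7.32, 7.32 and 8.02 CPM after auxin against 1.81, 1.82 and 1.57 CPM untreated (log2 2.11 ± 0.16, adjusted p = 1.82e-11). MIRLET7IHG, which holds let-7i, rose by 1.14 ± 0.21, and MIR222HG, which holds miR-221 and miR-222, by 0.81 ± 0.18.

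The largest rises among lncRNAs outside these lists fell on clone-named genes. AC245014.3 had 4.84, 5.46 and 6.39 CPM after auxin, against 0.107, 0.207 and 0.314 CPM untreated (log2 4.73 ± 0.31, adjusted p = 2.63e-12), but its single exon (chr1:145281116-145281462, plus strand) begins at the same base as the snRNA gene RNVU1-14 and shares its sequence. AC007952.4 (log2 3.37) likewise shares exon sequence with a SNORD3D gene. AL353803.4 had 1.98, 2.43 and 3.97 CPM after auxin and 0.249, 0.103 and 0.0785 CPM untreated (log2 4.23 ± 0.39), and AC103591.3 had 3.25, 3.64 and 3.61 CPM after auxin and 0.355, 0.172 and 0.353 CPM untreated (log2 3.57 ± 0.26). Neither overlapped between groups, but for AL353803.4 the difference from the response of control cells was not called (adjusted p = 0.303). AC132192.2, at 10.2, 12.3 and 13 CPM after auxin against 1.03, 1.82 and 1.61 CPM untreated, had the highest level after auxin of the 10 lncRNAs with the largest rises (log2 2.99 ± 0.16, adjusted p = 1.66e-14).

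Because polyA selection acts on the 3′ end, annotated 3′ ends were compared. A polyadenylation signal, AATAAA or ATTAAA on the transcript strand, stood in the last 50 bases of the longest annotated transcript of 1464 of the 2793 lncRNAs tested, or 52.4%, and in 54.9% of the 650 called higher. The share called higher was 24.4% with a signal and 22% without one. Exon number differed more, with 225 of 713 single-exon lncRNAs called higher (31.6%), 193 of 907 with 2 exons (21.3%) and 232 of 1173 with 3 or more (19.8%). All of these shares include 300 lncRNAs that passed the filter on low counts only through the auxin group, 152 of them called higher. The shares were not computed without those 300. The annotated end need not be the end of the RNA present here. The following last 50 bases of 3 lncRNAs with a signal and 1 without one show both kinds among the strongest rises. They are written 5′ to 3′ as RNA-sense DNA, with the signal in capitals, from GENCODE 29 transcripts on hg38.
PTPN23-DT, chr3:47379089-47379138, minus strand: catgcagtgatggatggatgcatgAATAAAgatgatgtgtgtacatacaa
SUGT1-DT, chr13:52651305-52651354, minus strand: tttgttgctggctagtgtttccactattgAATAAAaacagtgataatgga
AC132192.2, chr11:9459556-9459605, minus strand: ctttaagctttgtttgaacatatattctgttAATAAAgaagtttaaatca
AL353803.4, chr9:129480605-129480654, minus strand: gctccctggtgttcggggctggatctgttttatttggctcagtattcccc
In the first 3 the signal ends 20, 15 and 13 bases before the annotated end.

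Small RNAs that are normally not polyadenylated gave some of the largest ratios at low levels. Of 18 spliceosomal snRNAs tested, 10 were called higher and none lower (median log2 2.32). The calls include 8 variant U1 genes (RNVU1 symbols), 7 of them on chromosome 1, where most RNVU1 genes lie. All 8 passed the filter on low counts only through the auxin group, so that variants tested had to be high there, and their number is no measure of how many of the 26 in the tables responded. U1 recognises the 5′ splice site through its 5′ end. RNVU1-14 had 3.29, 3.91 and 4.80 CPM after auxin, against 0.107, 0.207 and 0.196 CPM untreated (log2 4.53 ± 0.35, adjusted p = 4.07e-11). That is 93, 103 and 133 counts against 3, 6 and 5, and the control means were 0.132 and 0.118 CPM. RNVU1-4 had 72, 64 and 61 counts after auxin and 1, 7 and 2 untreated (log2 4.26 ± 0.44), and RNVU1-30 rose by 3.75 ± 0.31. Neither overlapped between groups. The remaining calls were RNU4ATAC, the U4 snRNA of the minor spliceosome (log2 4.09), and RNU6-2, a U6 gene (1.41).

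The variants called higher differ from the canonical U1 gene RNU1-1, which had too few polyA counts to be tested. Aligned end to end, they were 72.7% to 92.2% identical to it. The 11 bases ATACTTACCTG that open RNU1-1, searched at the start of the transcript strand, open 3 of the 8 and 42.3% of the 26 RNVU1 genes in the tables. The 9 bases AATTTGTGG, which hold the Sm protein binding site of RNU1-1, occur on that strand in 5 of the 8 and in 73.1% of the 26. Copies this similar can exchange reads, so counts of single variants are uncertain. RNVU1-18 and RNVU1-29, which are 100% identical to RNU1-1, were not tested for change either. How reads that match several copies were counted is not given in the sources used here. Which variants could be tested, and so the identity of those called, may depend on it. Both motifs are in capitals in the gene sequences below, written 5′ to 3′ from GENCODE 29 transcripts on hg38.
RNVU1-14, chr1:145281116-145281279, plus strand: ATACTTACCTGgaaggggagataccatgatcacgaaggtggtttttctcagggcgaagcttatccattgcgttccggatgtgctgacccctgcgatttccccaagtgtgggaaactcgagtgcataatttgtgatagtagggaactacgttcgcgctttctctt
RNVU1-4, chr1:120942600-120942763, plus strand: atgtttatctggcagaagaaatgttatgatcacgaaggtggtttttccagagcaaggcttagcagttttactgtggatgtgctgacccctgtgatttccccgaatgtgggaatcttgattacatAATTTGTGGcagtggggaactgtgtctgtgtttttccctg
RNU1-1, chr1:16514122-16514285, minus strand: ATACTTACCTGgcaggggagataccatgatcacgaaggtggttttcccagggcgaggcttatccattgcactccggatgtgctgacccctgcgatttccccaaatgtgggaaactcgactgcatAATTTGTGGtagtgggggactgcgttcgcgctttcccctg
RNVU1-14 holds the 5′ run and not the Sm run, and RNVU1-4 the reverse, so neither run is common to the variants that rose.

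Box C/D snoRNAs, which guide 2′-O-methylation, were called higher in 10 of 60 cases and lower in 1 (median log2 0.17). The share of 16.7% is near the 13.2% over all features, and 8 of the 10 passed the filter on low counts only through the auxin group. The rises were led by SNORD3 genes, which encode U3, the snoRNA needed for the first cleavages of pre-rRNA. SNORD3A (chr17:19188016-19188714, plus strand) had 9.26, 10.8 and 9.64 CPM after auxin, against 0.569, 0.551 and 0.353 CPM untreated (log2 4.31 ± 0.18, adjusted p = 1.10e-16). All other groups lay far below the auxin values, with control means of 0.293 and 0.292 CPM. SNORD3C, SNORD3B-2, both SNORD3D features and SNORD3B-1 rose by 3.28 to 5.10 on the log2 scale, but these copies are near identical. SNORD13 (3.85) rose as well, as did SNORD118 (0.90 ± 0.25), the U8 snoRNA needed for rRNA processing, which lost its call without replicate 2 of the untreated or replicate 3 of the auxin group. SNORD55, in an intron of a ribosomal protein gene, was called lower (-0.42 ± 0.15, adjusted p = 0.0462), a call lost in 9 alternatives, among them library sizes alone.

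Box H/ACA snoRNAs, which guide pseudouridylation, were called higher in 18 of 48 cases (37.5%, against 13.2% of all features) and lower in none (median 0.26). Of the 18, 8 passed the filter on low counts only through the auxin group. Of the 35 H/ACA snoRNAs that reached its level in the other groups, 10 were called higher (28.6%, against 7.85% of all features chosen alike). SNORA9 had 1.98, 1.67 and 1.88 CPM after auxin against 0.249, 0.310 and 0.118 CPM untreated (log2 2.98 ± 0.34). SNORA17B and SNORA16A rose by 2.32 ± 0.27 and 2.02 ± 0.27. Of the 31 snoRNAs called higher, 20 share exon sequence with another gene, so their counts may include reads of that gene. Neither of the 2 scaRNAs tested was called, and none of 8 structured RNA polymerase III transcripts was (median 0.21; by edgeR or DESeq2, with 1 unadjusted p below 0.05 in each list). RN7SL2, the RNA of the signal recognition particle, had 27.9, 27.5 and 28.3 CPM after auxin and 25.2, 26.5 and 27.8 CPM untreated.

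**Figure D3:**
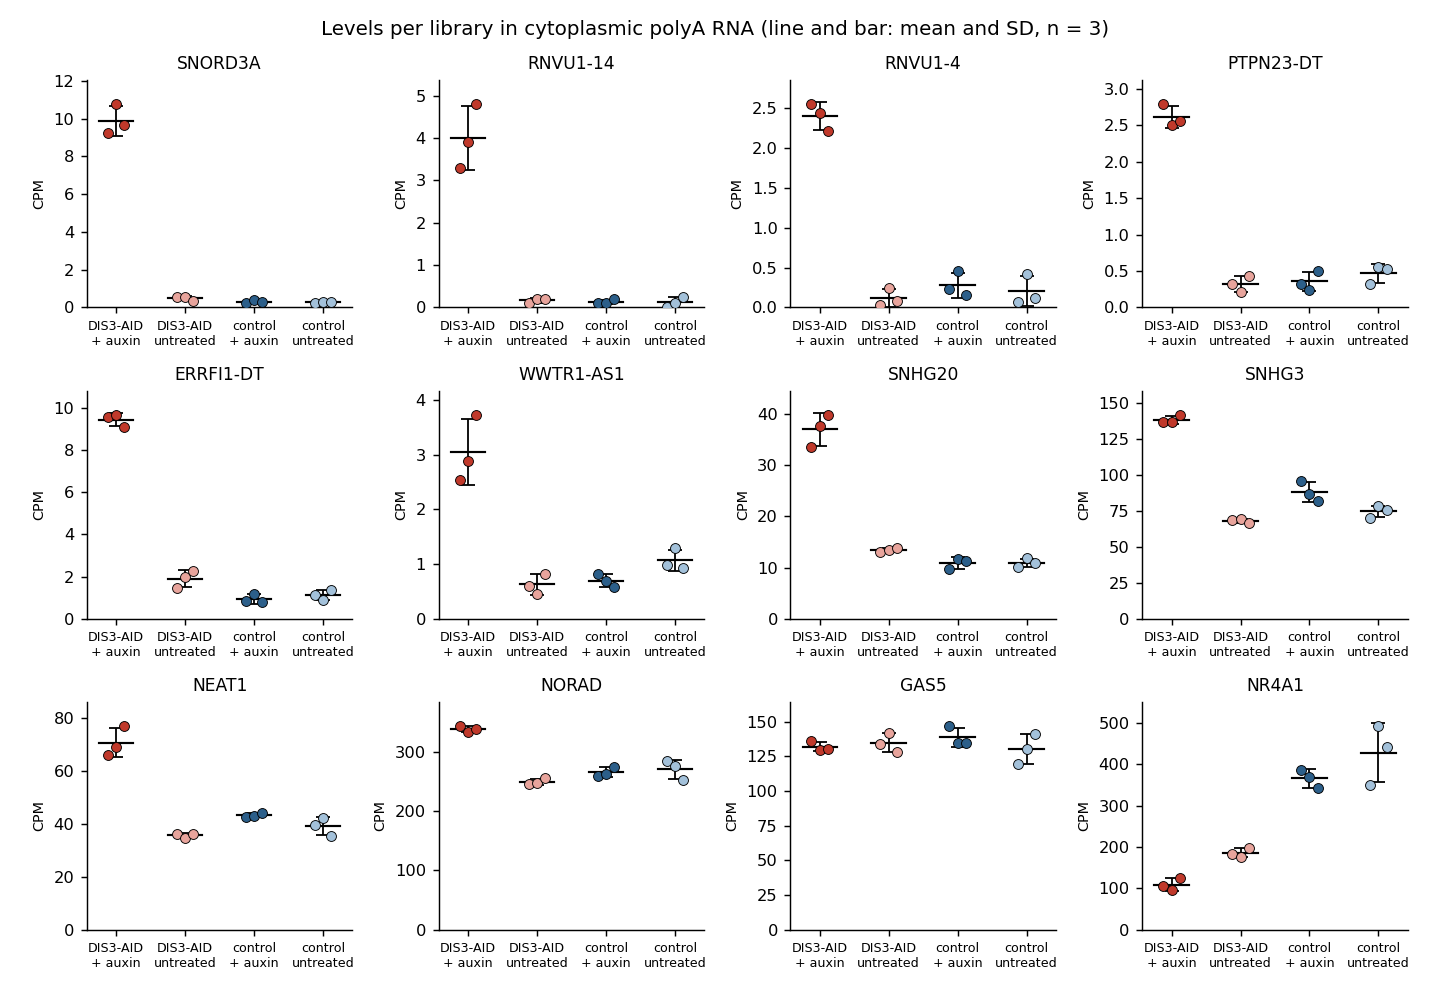
Level (CPM) of 12 genes in each polyA library (points) of 4 groups, with mean and SD as line and bar (n = 3). For SNORD3A, RNVU1-14, RNVU1-4, PTPN23-DT, ERRFI1-DT, WWTR1-AS1, SNHG20, SNHG3, NEAT1 and NORAD the auxin-treated DIS3-AID libraries lie above all 9 others, GAS5 overlaps, and NR4A1 is lowest after auxin (mean 109 CPM against 186 CPM untreated).

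Host genes of snoRNAs that code for no protein make spliced, polyadenylated RNAs that carry the snoRNAs in their introns. Of 29, 15 were called higher (51.7%, against 23.3% of all lncRNAs tested and 13.2% of all features) and none lower. Only 2 of these host genes rose by at least 2-fold, and their median log2 change of 0.18 was below the 0.22 of all lncRNAs tested. SNHG20 had 33.6, 37.8 and 39.8 CPM after auxin, against 13.04, 13.46 and 13.86 CPM untreated (log2 1.46 ± 0.09, adjusted p = 8.28e-14), with 10.9 CPM as the mean of each control group. SNHG3 had 137, 136 and 141 CPM after auxin and 68.7, 69.2 and 66.5 CPM untreated (log2 1.02 ± 0.06). Its 2 groups were a factor of 2 apart with almost no spread. SNHG4 and SNHG10 rose by 0.89 ± 0.08 and 0.85 ± 0.09. GAS5, a host whose spliced RNA is degraded during translation, was not called (136, 130 and 130 CPM after auxin, 134, 142 and 128 CPM untreated; log2 -0.03, adjusted p = 0.82), and neither was SNHG1 (0.13, adjusted p = 0.0726).

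lncRNAs known for their place in the cell moved on both sides. Of 13 that are mainly nuclear, 5 were called higher (38.5%, against 23.3% of all lncRNAs tested and 13.2% of all features) and none lower (median 0.22). NEAT1, the scaffold of paraspeckles, had 66.0, 69.2 and 76.8 CPM after auxin and 36.3, 34.7 and 36.2 CPM untreated (log2 0.98 ± 0.07, adjusted p = 3.29e-12). Both LINC-PINT features rose, by 1.34 ± 0.10 and 1.24 ± 0.10. MALAT1, retained in nuclear speckles, was called (log2 0.44 ± 0.10, adjusted p = 0.00258), although its values overlapped at 24.1, 26.9 and 19.4 CPM after auxin and 15.2, 17.1 and 19.7 CPM untreated. In total RNA of the same fraction MALAT1 was not called (log2 -0.08, adjusted p = 0.28). The part of nuclear RNA in the cytoplasmic fraction in these rises was not tested.

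Of 8 lncRNAs that are mainly cytoplasmic, 3 were called higher (37.5%, against 23.3% of all lncRNAs tested and 13.2% of all features) and none lower (median 0.10). NORAD, which binds Pumilio proteins, had 342, 333 and 338 CPM after auxin and 246, 247 and 255 CPM untreated (log2 0.44 ± 0.05, adjusted p = 4.37e-08), with no overlap. LINC01123 rose by 0.46 ± 0.12. OIP5-AS1, another abundant cytoplasmic lncRNA, had 161, 157 and 150 CPM after auxin and 154, 162 and 154 CPM untreated, and was not called.

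A few pseudogenes and coding genes joined the rise. Pseudogenes were called higher in 59 of 985 cases (5.99%, below the 13.2% of all features) and lower in 1. OSTCP1 had 2.86, 3.98 and 3.61 CPM after auxin against 0.178, 0.138 and 0.157 CPM untreated (log2 4.43 ± 0.31), and RPSAP52, which lies antisense to HMGA2, had 12.02, 12.17 and 12.35 CPM after auxin and 3.06, 3.13 and 3.26 CPM untreated (log2 1.95 ± 0.13, adjusted p = 9.19e-13). Values of coding genes have a limit of their own. Of the coding genes whose models are all coding, 53 of 6382 (0.83%) are listed in the polyA tables, against 13256 of 13380 (99.1%) of those with a non-coding model, so a coding gene's polyA value may cover a part of its exons.

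Among the coding genes, FAM174B had 4.59, 5.12 and 4.22 CPM after auxin against 0.924, 0.516 and 0.707 CPM untreated (log2 2.69 ± 0.20), but it shares exon sequence with a lncRNA gene. SPESP1 and LEKR1 rose by 1.78 ± 0.27 and 1.69 ± 0.17, close to their changes in total RNA of 1.82 and 1.78. PLEC, the gene of the cytolinker plectin, had 8.87, 10.6 and 13.1 CPM after auxin and 3.23, 2.72 and 4.47 CPM untreated (log2 1.65 ± 0.15, adjusted p = 2.65e-09), while in total RNA it was not called (-0.13, adjusted p = 0.176). ZNF48 showed the same contrast, at 1.37 ± 0.26 in polyA RNA and -0.09 (adjusted p = 0.296) in total RNA. Over 223 genes with ZNF symbols, which encode zinc finger transcription factors, 13 were called higher and 2 lower (median 0.00). The shares of 5.83% and 0.897% lie below the 13.2% and 3.88% over all features. Of all coding genes tested, 1.67% were called higher and 6.1% lower. Against these, the share of ZNF genes called higher is larger and the share called lower is smaller.

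Genes of RNA processing moved little. Of 32 cleavage, polyadenylation and Integrator factors, PCF11, a transcription termination factor, and CSTF3, a subunit of the cleavage stimulation factor, were called higher (log2 0.27 ± 0.07 and 0.26 ± 0.08) and none lower. The share of 6.25% lies below the 13.2% called higher over all features, but above the 1.67% of coding genes tested. PCF11 lost its call without untreated replicate 2, and CSTF3 without untreated replicate 1, untreated replicate 3 or auxin replicate 2. Of 23 SR splicing factors and CLK kinases, RSRP1 (0.56 ± 0.13) and the kinase gene CLK1 (0.29 ± 0.07) were called higher. This share of 8.7% is also below that over all features and above that of coding genes. Each of these 2 lists rests on 2 genes called. None of 79 ribosomal protein genes, 28 ribosome biogenesis factors, 9 heat shock genes, 17 S phase genes, 18 G2/M genes or 6 targets of the aryl hydrocarbon receptor was called in either direction by edgeR or DESeq2. An unadjusted p below 0.05 was found for 1 ribosomal protein gene, 1 S phase gene, 1 aryl hydrocarbon receptor target and 0 in the other 3 lists, against 4270 of all features (25.6%). Of 4 replication-dependent histone features tested, H2BC19P and H2BC20P, both listed as pseudogenes, were called higher (H2BC20P by log2 0.53 ± 0.17), but neither by DESeq2.

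**Figure D4:**
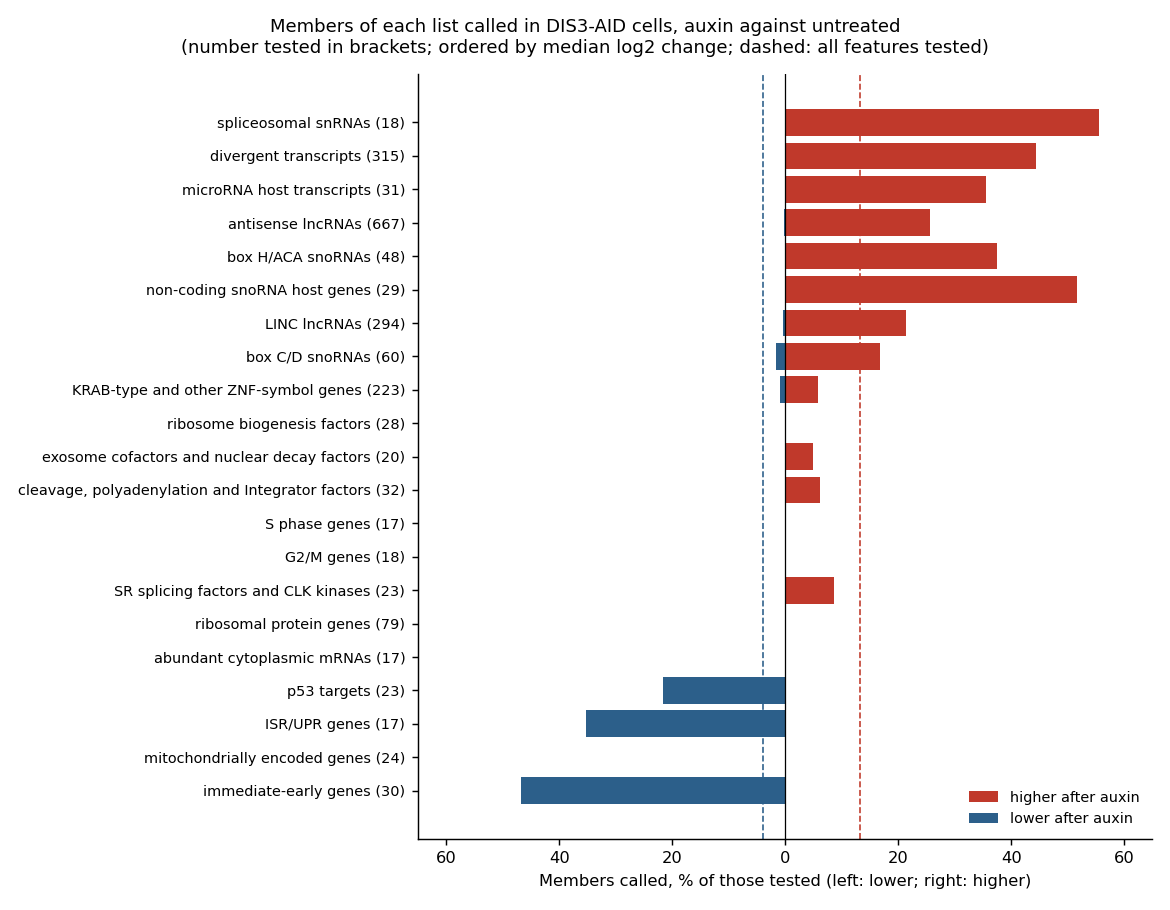
Members of 21 gene lists called higher (red, to the right) or lower (blue, to the left) after auxin in DIS3-AID cells, as a percentage of the members tested (number in brackets), ordered by median log2 change, with the share over all features tested as dashed lines. Spliceosomal snRNAs, non-coding snoRNA hosts and divergent transcripts lie furthest to the right (10 of 18, 15 of 29 and 140 of 315), and immediate-early genes furthest to the left (14 of 30). Of the 10 snRNAs, 9 passed the filter on low counts only through the auxin group. Of the 7 snRNAs that reached its level in the other groups, 1 was called higher (14.3%), so the rank of that list depends on the filter.

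The falls were small, and 615 of the 646 lay in coding genes. Of 30 immediate-early genes, which respond fast to growth signals and have short-lived mRNAs, 14 were called lower and none higher (median log2 -0.38). The share of 46.7% stands against 3.88% of all features and 6.1% of coding genes tested. Tested as a difference between the lines, the response was called lower in DIS3-AID cells for 7 of the 30. NR4A1, an orphan nuclear receptor, had 105, 96.1 and 126 CPM after auxin against 184, 177 and 198 CPM untreated (log2 -0.77 ± 0.14, adjusted p = 0.00308). The 2 groups did not overlap, and the control line was higher still, at means of 366 CPM with and 428 CPM without auxin. For NR4A1 the difference between the lines in the response to auxin was not called. BHLHE40, a transcriptional repressor of the clock, had 31.7, 25.5 and 32.2 CPM after auxin and 44.1, 53.6 and 52.5 CPM untreated (log2 -0.75 ± 0.08), and HBEGF, an EGFR ligand, fell by 0.67 on the log2 scale. FOS stood at -0.65 without passing the test, and HES1, a Notch target, at 0.25.

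Of 17 genes of the integrated stress and unfolded protein responses, 6 were called lower and none higher (median -0.23). The share of 35.3% stands against 3.88% of all features and 6.1% of coding genes tested. The difference between the lines was called lower for 4 of the 17. CALR, an ER chaperone, had 315, 380 and 330 CPM after auxin against 420, 472 and 456 CPM untreated (log2 -0.40 ± 0.08), and SLC3A2 and PDIA4 each fell by 0.35 on the log2 scale. Of 23 p53 targets, 5 were called lower (21.7%) and none higher (median -0.08), or 3 lower with library sizes alone. The difference between the lines was called lower for 2 of the 23. GDF15, a stress-induced cytokine, had 8.84, 9.25 and 10.1 CPM after auxin and 12.3, 19.7 and 18.0 CPM untreated (log2 -0.82 ± 0.17), but its difference between the lines was not called. The cell cycle inhibitor CDKN1A had 69.1, 71.5 and 71.3 CPM after auxin and 85.4, 87.3 and 95.9 CPM untreated (-0.34 ± 0.05). THBS1, an extracellular matrix glycoprotein, fell by 0.77 on the log2 scale. LGI3, MR1, PRODH, PLCH2 and RND1 fell by 0.72 to 0.91 on the log2 scale at untreated levels under 2.2 CPM, and of these all but LGI3 lost the call when single libraries were left out. PLCH2 was called at adjusted p = 0.0294 and RND1 at 0.0338. In control cells PLCH2 stood at -0.73 with auxin, not called, and its difference between the lines was -0.06 (adjusted p = 0.969). Of the 5, LGI3 alone had a difference between the lines that was called. The number of coding genes called lower depended on the scaling, 615 with TMM and 318 with library sizes alone.

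A few epithelial genes fell too. Of 10 colon epithelial markers tested, ELF3, an epithelial transcription factor (log2 -0.34 ± 0.07, adjusted p = 0.000336), and EPCAM, a cell adhesion molecule (-0.29 ± 0.07, adjusted p = 0.00789), were called lower. The share of 20% stands against 3.88% of all features and 6.1% of coding genes tested, but rests on these 2 genes. None of the 24 mitochondrially encoded genes was called by edgeR or DESeq2, with 1 unadjusted p below 0.05 (median log2 -0.26 in DIS3-AID and 0.32 in control cells). COL1A1, a fibroblast marker, was called lower at 12.83, 12.02 and 12.49 CPM after auxin and 14.04, 14.53 and 16.29 CPM untreated, a call lost with library sizes alone. A change in the number of cells that carry a transcript and one in the amount per cell cannot be told apart in these bulk samples.

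Total RNA from the cytoplasm of the same lines was then set beside the polyA RNA. Those libraries held 59.5 to 122.6 M counts, and 7894 of 23027 features (34.3%) were called in DIS3-AID cells, 4854 higher (21.1%) and 3040 lower (13.2%). The falls there numbered 1477 without auxin replicate 2, 1511 without untreated replicate 1 and 1941 without auxin replicate 3. Their greater depth alone allows more calls, and eRNA regions are not in the total RNA tables used here. Of 2756 lncRNAs tested in both assays, 644 were called higher in polyA RNA and 1339 in total RNA. The 613 called in both were 95.2% of those in polyA RNA and 45.8% of those in total RNA. For assembled loci the 488 shared calls were 99.4% of the 491 in polyA RNA and 82.7% of the 590 in total RNA. All 31 snoRNAs called higher in polyA RNA were also called in total RNA, out of 55 there. Across the 2756 lncRNAs the log2 changes of the assays had a Pearson r of 0.76, and across the 783 assembled loci 0.81. These describe features of the same cells and carry no test.

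The difference between the 2 responses was tested directly in 1 fit over 24 libraries, without coding genes. It was significant for 701 of 8681 features (8.08%), 73 with a larger change in polyA RNA (0.841%) and 628 with a smaller one (7.23%). The 73 became 41 without untreated polyA replicate 2 and 48 without untreated polyA replicate 1. Among lncRNAs tested in both assays the change in polyA RNA was larger in 9 and smaller in 376 of 2756 (median -0.17). Among assembled loci it was larger in 37 and smaller in 118 of 783, and among snRNAs larger in 2 of 19 and smaller in none. ERRFI1-DT rose by 2.32 in polyA and by 3.17 in total RNA (difference -0.85, adjusted p = 2.58e-05), and LINC02939 by 2.03 and 3.46 (difference -1.42, adjusted p = 0.00151). GAS5 was called in total RNA alone (log2 -0.03 in polyA and 0.45 in total RNA; difference -0.48, adjusted p = 8.85e-06). SNORD118 rose by 0.90 in polyA and 2.43 in total RNA (difference -1.53).

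Structure was then compared between lncRNAs by the assay that called them. Of the 613 called higher in both, 34.6% had a single exon and 55.1% a polyadenylation signal in their last 50 bases. Of the 726 called higher in total but not in polyA RNA, 16.3% had a single exon and 48.1% a signal. These shares were not tested, and the 613 include lncRNAs that passed the filter on low counts only through the auxin group. The following 2 lncRNAs with a smaller change in polyA than in total RNA were chosen after their values were seen. AC090023.2 changed by 0.48 in polyA RNA and 3.49 in total RNA (difference -3.01, adjusted p = 6.77e-17), at mean levels of 1.22 CPM after auxin and 0.866 CPM untreated in the polyA set, and 15.8 and 1.40 CPM in the total set. ARHGAP29-AS1 changed by 1.02 in polyA RNA and 3.48 in total RNA (difference -2.46, adjusted p = 1.18e-28).

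The 73 features with a larger change after polyA selection included RNAs whose mature form has no tail, although of 114 snoRNAs tested in both assays only 4 had a larger and 13 a smaller change (median difference -0.03). SNORD3A rose by 4.31 in polyA RNA and by 1.45 in total RNA (difference 2.86, adjusted p = 3.14e-05). RNVU1-14 rose by 4.53 and 2.84 (difference 1.70, adjusted p = 0.00635), and SNORA16A by 2.02 and 0.94 (difference 1.09, adjusted p = 0.00287). TERC, the RNA subunit of telomerase, whose 3′-extended precursors can be oligoadenylated, was chosen after its values were seen. It had 1.63, 1.82 and 1.34 CPM in polyA RNA after auxin, against 0.498, 0.516 and 0.471 CPM untreated (log2 1.67 ± 0.33, adjusted p = 0.000255), and the groups did not overlap. In total RNA it averaged 45.1 ± 2.16 CPM after auxin and 41.2 ± 2.63 CPM untreated (SD, n = 3 each; log2 0.13, adjusted p = 0.0806). The polyA response of TERC exceeded that in total RNA by 1.55 (adjusted p = 6.02e-08).

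**Figure D5:**
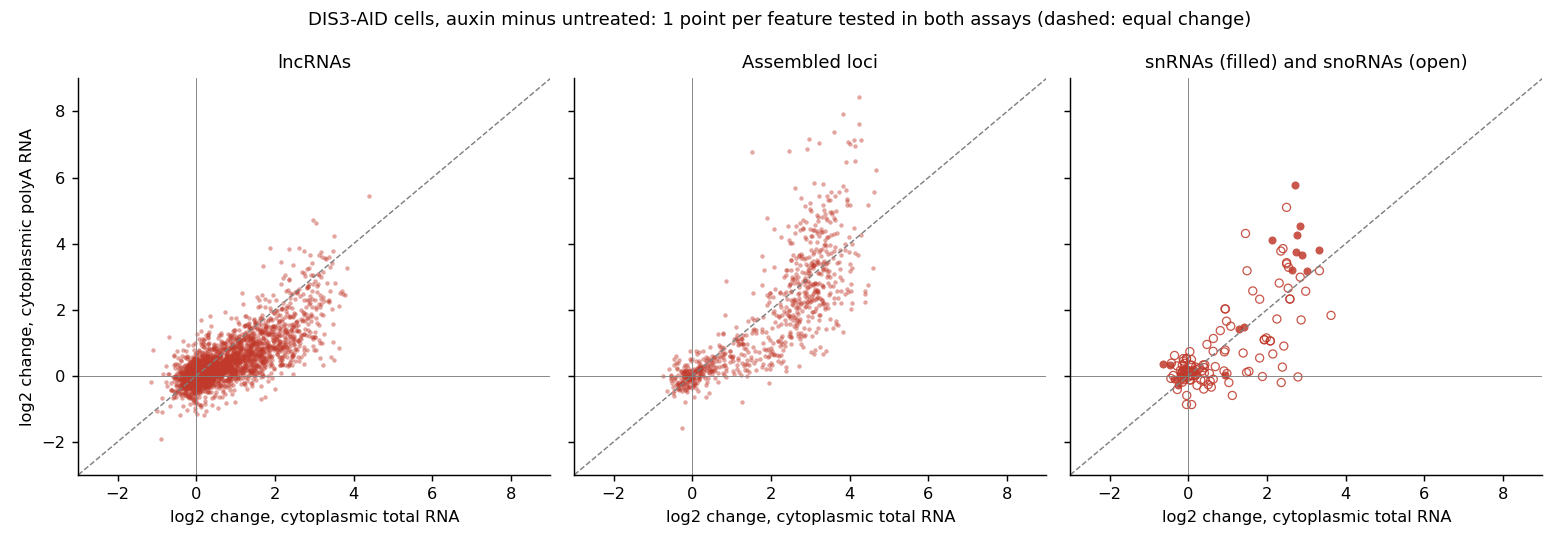
Log2 change after auxin in DIS3-AID cells, in cytoplasmic polyA RNA (y axis) against cytoplasmic total RNA (x axis), with 1 point per feature tested in both assays and equal change as a dashed line. Most lncRNAs that rise lie below the line (difference called in 376 of 2756 as smaller and in 9 as larger), while several snRNAs (filled), snoRNAs (open) and assembled loci lie above it.

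Auxin without a tagged DIS3 did little. The 8 genes called in control cells, given here after their values were seen, were NABP1 (log2 -1.07), CLK1 (-0.54), CREBZF (-0.47), VCL (-0.47), ARMC7 (-0.42), BDNF (-0.32), TSC22D1 (0.39) and DEPP1 (0.76). CLK1 and CREBZF moved the other way in DIS3-AID cells (0.29 and 0.37, both called), as did DEPP1 (-0.65, called), and VCL fell in both lines (-0.35 in DIS3-AID cells). No lncRNA, snRNA, snoRNA, assembled locus or eRNA region was called in control cells.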

How the data were processed

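The values are read counts per feature, 1 table per library, as the authors deposited them. Per the submitters' processing notes, the tools were featureCounts 2.0.0, STAR 2.7.3a and Cufflinks 2.2.1 with hg38, with parameters not given in the sources used here. The 60095 features of the polyA tables were annotated from GENCODE 29. Of 51223 Ensembl genes, 50916 were found there. The 12 polyA libraries were scaled by TMM (factors 0.973 to 1.041), filtered with filterByExpr (min.count 10) and fitted together by edgeR 4.0.16 (quasi-likelihood, robust), with Benjamini-Hochberg adjustment and a call threshold of 0.05. The biological coefficient of variation was 6.07%. The 12 total RNA libraries were fitted alike, and polyA and total RNA in 1 further fit. DESeq2 1.42.0 served as the other tool, in R 4.3.3, and tables were made in Python 3.11.15. The scripts were tested on simulated data. Same-numbered polyA libraries of different groups did not deviate together (r -0.056 to 0.094), so no block was used. Same-numbered polyA and total RNA libraries of the same group did deviate together, weakly (r 0.009 to 0.203). The main fit of polyA and total RNA did not model this, and the alternative with each RNA sample as a replicate block is given below. The members and gene lists were chosen with earlier results of these data known. Named genes are the largest changes per class and list among those called, without overlap between groups and at a mean of at least 1 CPM, and in addition DIS3, the exosome subunits, NEAT1, MALAT1, GAS5, SNHG1 and members of lists with 15 or fewer tested. FOS, HES1 and other genes outside this rule were chosen after their values were seen. Lists are described by counts and medians, with no list test.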

Additional observations from a re-analysis of the deposited data

Results flagged for a closer look

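For the features named by size or list, the auxin effect in DIS3-AID cells was compared with that in control cells by an interaction term (log2, DIS3-AID minus control; edgeR, adjusted over all features). Of the 96 named features called in DIS3-AID cells the difference passed for 58 and did not for 38, among them AL353803.4 (3.62), MYADM-AS1 (1.82), LINC01144 (1.43), GDF15 (-0.86), NR4A1 (-0.55), MALAT1 (0.17) and PLCH2 (-0.06). No explanation was weighed.

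Where it passed, the difference among lncRNAs was 4.73 for AC245014.3, 3.95 for AC106028.2, 3.93 for AC103591.3, 3.76 for AC007952.4, 3.65 for AC120024.1, 2.95 for AC132192.2 and 2.86 for MIR378D2HG. Divergent transcripts gave 3.44 for PTPN23-DT, 2.58 for ERRFI1-DT, 2.39 for SUGT1-DT and 2.12 for STAM-DT. Antisense and intergenic RNAs gave 3.47 for SPACA6-AS1, 2.89 for WWTR1-AS1, 2.24 for LINC02939, 1.99 for LINC02983 and 0.72 for LINC01123. Host transcripts gave 2.05 for MIR4453HG, 1.15 for MIRLET7IHG, 1.46 for SNHG20, 0.78 for SNHG3, 0.76 for SNHG4 and 0.75 for SNHG10. For the LINC-PINT features it was 1.15 and 0.93, for NEAT1 0.83 and for NORAD 0.47.

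Small RNAs differed by 4.41 for RNVU1-14, 4.30 for SNORD3A, 4.26 for RNVU1-30, 3.75 for RNVU1-4, 2.43 for SNORA9, 2.32 for SNORA16A, and 1.89 and 1.93 for the SNORA17B features. Coding genes and pseudogenes that rose gave 3.17 for OSTCP1, 2.95 for FAM174B, 1.97 for RPSAP52, 1.87 for LEKR1, 1.70 for ZNF48, 1.66 for ZNF565, 1.60 for SPESP1, 1.56 for PLEC, 1.42 for DUSP8P5, 0.97 for ZNF250, 0.83 for RSRP1, 0.83 for CLK1, 0.68 for ZFC3H1 and 0.40 for PCF11. Part of the CLK1 value is a fall in control cells. Genes that fell more in DIS3-AID than in control cells were LGI3 (-1.11), BHLHE40 (-0.71), ELF3 (-0.60), CALR (-0.42), PDIA4 (-0.37), SLC3A2 (-0.31) and CDKN1A (-0.25).

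The fitted difference was 7.16 for the assembled locus XLOC_001008, with 64, 63 and 81 counts after auxin and 0, 0 and 2 untreated, so its size depends on the prior count of the fit. It was 6.15 for XLOC_008598 (90, 82 and 126 counts after auxin, 3, 1 and 1 untreated) and 6.33 for the intergenic eRNA region named by size, whose levels in DIS3-AID cells equal those of XLOC_008598.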

How the results depend on the processing

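Rises after auxin in DIS3-AID cells numbered 2190. Counts of rises were 1980 to 2199 when each library was left out in turn, 2351 with library sizes alone, 1930 with DESeq2, 2211 with the replicate block and 900 with Ensembl genes only, where fewer features are tested. Falls (646) were less stable, at 331 with library sizes alone, 367 with scaling on other genes, 362 with Ensembl genes only, 993 with no low-count filter and 811 with the replicate block. Leaving out single libraries gave 387 to 829 falls, the lowest without replicate 1 of the auxin group. In control cells, 2 higher and 6 lower became 12 and 24 with no filter, 9 and 15 with DESeq2, and 9 and 15 with the replicate block, and single libraries left out gave 1 to 7 higher and 3 to 21 lower. The excess of DIS3-AID over control cells had 832 higher and 242 lower with the replicate block, and 625 to 749 higher without single libraries. Its 164 lower became 72 with library sizes alone, 284 with no filter and 78 to 260 without single libraries. In total RNA the 3040 falls became 681 with library sizes alone and 1477 to 2446 without single libraries, while rises ran from 4565 to 4948. For the polyA minus total response, the 73 larger became 41 to 88 and the 628 smaller 498 to 610 without single libraries, and 79 and 646 with the replicate block. With each RNA sample as a replicate block, an alternative chosen after seeing the data, they became 92 and 651. Keeping 1 feature per set of identical counts, and leaving out genes that share exon sequence, both also chosen after seeing the data, gave 2134 and 2009 rises. Counting only features that reach the filter level outside the auxin group, likewise chosen after seeing the data, left 1203 rises and 646 falls.

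Differences in the shares of assembled loci, eRNA regions, lncRNAs, snRNAs and snoRNAs kept their direction without any single library. The mitochondrial share, 0.214 percentage points lower after auxin, ran from -0.463 to 0.0228 and turned positive without replicate 3 of the untreated group. Of 96 named features called, 19 lost the call in at least 1 alternative and none reversed. The cause of these changes was not tested. With 3 libraries per group the exact tests could not go below p = 0.1, and depth limits RNAs near 0.1 CPM, where single libraries hold few counts.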

Other observations

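Some features were seen after auxin alone. In 73 of the 60095 features of the polyA tables, each auxin-treated DIS3-AID library held at least 3 counts and the 9 other polyA libraries held none. These were 56 eRNA regions, 16 assembled loci and 1 snRNA, with no lncRNA, snoRNA, pseudogene or coding gene among them. The highest median count among them was 46. No feature had at least 3 counts in each untreated DIS3-AID library and none in the 9 others. The set was chosen by its counts, so no test was made on it.

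Features also overlap. Among those tested, 82 fell into 41 sets with identical counts in all 12 libraries, and 20 eRNA regions had the same counts as an assembled locus, so the counts of the 2 classes are not independent.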
